A study of Homo sapiens with 44 samples.

Results

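HL-60 is an established human acute myeloid leukemia (AML) cell line of promyelocytic type, and its response to hairpins against GSK3A was measured on expression arrays. GSK3A encodes the alpha form of glycogen synthase kinase 3. By their labels, 7 of the 44 arrays of the series belong to this comparison: 3 of HL-60 cells with a scrambled control hairpin, 2 with GSK3A construct 5 and 2 with GSK3A construct 6. The other arrays hold HL-60 with hairpins against GSK3B (4 arrays) and the same design in THP-1, MOLM-14 and U937, which are other AML lines. The constructs are called hairpin 5 and hairpin 6, and for many genes both are described beside their mean. Where only the mean is given, 1 hairpin may carry most of the change. All cultures, controls included, were infected with a hairpin, kept under puromycin at 1 µg per mL from 48 h after infection and harvested for RNA 48 h after that. No uninfected or unselected cells were analysed here. The labels call the replicates biological and do not say that they came from separate cultures or infections, so p-values measure the spread between these arrays, which may be technical. HL-60 is 1 line, so nothing here speaks for AML cells of other origin.

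Glycogen synthase kinase 3 is a serine and threonine kinase that is active in resting cells and is switched off by growth factor and Wnt signals. Its alpha and beta forms phosphorylate glycogen synthase, and they mark beta-catenin, MYC and other proteins for degradation. AML cells are blocked at an immature stage. HL-60 cells carry the primary granule enzymes of promyelocytes, such as myeloperoxidase, and are known to mature toward granulocytes or toward monocytes when treated with inducers such as retinoic acid or vitamin D. The question of the study, as far as it is known, was whether loss of either form moves AML cells toward myeloid differentiation.

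Values are deposited intensities on a linear scale, already summarised over the probes of a probe set. The median intensity of the 7 HL-60 arrays lay between 19.6 and 20.1, so a value near 20 is in the middle of all probe sets on an array. A log2 change is a difference of log2(intensity + 16) after quantile normalization, which makes the change of dim genes smaller than the change in their intensity. An error after ± is the standard error of the fit unless it is named SD. A gene was called changed, and is said to have risen or fallen, at an adjusted p under 0.05 (limma, Benjamini-Hochberg over 12165 genes). Levels are compared within a gene and not between genes. Of the promyelocyte markers, MPO read 5575 ± 237 (SD, n = 3) in HL-60 controls, against 11.4 to 106 in controls of the other lines. PRTN3 (1263 against 275 to 509) and CEBPE (185 against 10.5 to 45.8) were also higher in HL-60. Others were lower in HL-60 than in each other line: ELANE (2748 ± 375 against 3262 to 4016), CTSG (1659 ± 95.7 against 3790.5 to 6397), AZU1 (119 against 353.5 to 1149) and MYB (1526 against 2091 to 2169). These markers together therefore do not set HL-60 apart from the other lines. CD34 (17.03) and HLA-DRA (10.8), which promyelocytes lack, lay below the array medians. CD14 read 262 in these controls, against 7.82 to 13.2 in the other lines, so the surface receptor that marks monocytes was not at background in HL-60 before GSK3A was targeted.

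The targeted transcript was lower on all 4 hairpin arrays than on the control arrays, by a small margin. GSK3A read 57.8, 51.7 and 53.1 on the control arrays, 44.4 and 45.0 with hairpin 5 and 45.4 and 46.7 with hairpin 6. The highest hairpin array lay below the lowest control, and the mean of the hairpin arrays was 83.7% of control. The log2 change was −0.20 ± 0.05 (adjusted p = 0.0139), with −0.23 (0.0175) for hairpin 5 and −0.18 (0.136) for hairpin 6, which on its own did not pass. The difference between the hairpins was −0.05 ± 0.07 (0.849). A dimmer probe set of the gene went from a mean of 27.5 to 21.03 (log2 change −0.26). The call of the mean was lost without control replicate 1 (−0.16, adjusted p = 0.119) and without the first hairpin 6 array (−0.19, 0.057), and within plate columns 1 to 6 (−0.23, 0.101) and 7 to 11 (−0.17, 0.365). How low these probe sets would read with no transcript was not tested, and the protein was not analysed here. GSK3B, the beta form, read 176, 204 and 182 in controls, 208 and 203 with hairpin 5 and 181 and 152 with hairpin 6, ranges that overlap (−0.03 ± 0.09, adjusted p = 0.941). With its own hairpins it read 52.5 and 54.3 and 41.6 and 32.0. On those GSK3B hairpin arrays GSK3A read 47.3 and 54.2 and 52.6 and 51.2. Set against them, the GSK3A hairpins changed GSK3A by −0.13 ± 0.05, which did not pass (adjusted p = 0.0988).

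**Figure D1:**
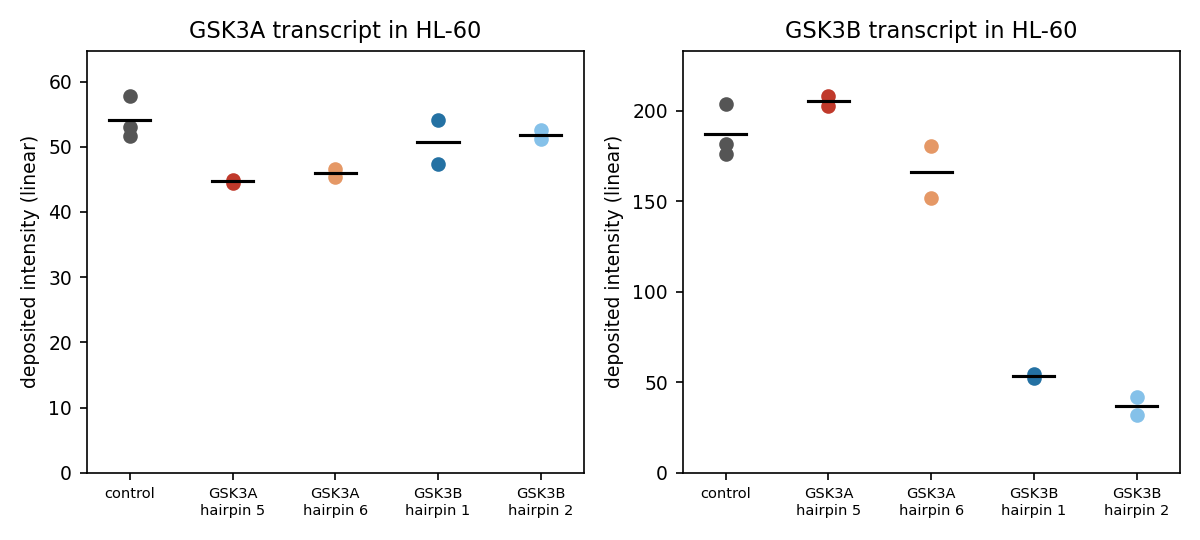
Deposited intensity (linear scale, from 0) of GSK3A (left) and GSK3B (right) on each HL-60 array, by hairpin; points are arrays and bars are group means. GSK3A falls from a control mean of 54.2 to 44.7 and 46.0 with its hairpins, while GSK3B with the GSK3A hairpins stays in the range of its controls or near it and reads 32.0 to 54.3 with its own.

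In the mean of both hairpins, 1097 of 12165 genes passed (9.02%), of which 493 rose and 604 fell. Of these, 104 rising and 63 falling genes changed by 1.5-fold or more, and the median change of all genes was −0.00. Hairpin 5 changed 1457 genes (12%; 714 up, 743 down) and hairpin 6 changed 519 (4.27%; 233 up, 286 down). The hairpins share the 3 control arrays, so a high or low control moves both, and for many genes the values of each are given side by side below. These tests use 1 spread per gene over all 4 lines, and the median spread between replicate arrays was 0.0671 in HL-60, against 0.0632 for THP-1, 0.0998 for MOLM-14 and 0.0911 for U937. With the 11 HL-60 arrays alone, 2594 genes passed (21.3%; 1271 up, 1323 down), and with plate columns as a block 2418 passed (19.9%; 1150 up, 1268 down). The plate columns come from the file names in the labels, and each side of the plate holds 1 array of each hairpin. Within columns 1 to 6 alone 1704 genes passed and within columns 7 to 11 alone 1162, where the spread of both comes from the first and second control arrays of each line, all in columns 1 to 6, and a lone array is assumed to vary like them.

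The 12 genes that rose most included receptors, secreted proteins, an enzyme and a transporter. They were chosen as the largest rises with every hairpin array above every control, so that separation follows from the choice. PTX3, a secreted pentraxin that binds microbes, was at the head of the list. It read 81.7, 99.5 and 84.9 in controls, 349 and 347 with hairpin 5 and 336 and 344 with hairpin 6, all hairpin arrays far above the controls. The log2 change was 1.73 ± 0.18 (adjusted p = 1.3e-07), and the difference between the hairpins was 0.04 ± 0.23 (0.973). CLEC7A, the beta-glucan receptor dectin-1, rose as well: 39.6, 47.8 and 35.5 in controls, 104 and 107 with hairpin 5 and 116 and 126 with hairpin 6 (1.11 ± 0.08, adjusted p = 1.8e-10; difference between hairpins −0.18 ± 0.10, 0.418). HP, haptoglobin, which binds free hemoglobin, read 233, 206 and 233, then 684 and 803 and 579.7 and 578 (1.47 ± 0.13, 1.8e-08). That rise rests on 1 of 3 probe sets, and the others, with control means of 32.02 and 14.8, changed by −0.17 and −0.16.

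Other rising genes had a clear step with hairpin 5 and a smaller one with hairpin 6. CD14, the receptor that presents bacterial lipopolysaccharide to TLR4, read 274, 258 and 255 in controls, 1039.6 and 1144 with hairpin 5 and 379 and 354 with hairpin 6. All 4 hairpin arrays lay above all controls, as the choice of these genes required. The log2 change was 1.97 (adjusted p = 3.4e-16) with hairpin 5 and 0.44 (4.2e-04) with hairpin 6 (difference 1.53 ± 0.08, 8.9e-13). TREM1, a receptor that amplifies inflammatory signals in monocytes and neutrophils, was near background in controls at 27.7, 25.5 and 17.4. It read 214 and 292 with hairpin 5 and 46.3 and 37.3 with hairpin 6. Its hairpin arrays lay above the controls by the same choice. Hairpin 6 on its own did not pass (0.54 ± 0.30, adjusted p = 0.435) and hairpin 5 did (2.68 ± 0.30, 3.3e-07). ALOX5, the 5-lipoxygenase that starts leukotriene synthesis, went from 119, 138 and 136 to 412 and 453 with hairpin 5 and 216 and 189.9 with hairpin 6 (mean 1.05 ± 0.09, adjusted p = 2.9e-09). The calcium-binding protein S100A6 went from a control mean of 146 to 409 and 242 (1.01 ± 0.08, 2.9e-09). The hairpins differed in ALOX5 by 1.02 ± 0.11 (3.2e-07), in TREM1 by 2.13 ± 0.33 (6.4e-05) and in S100A6 by 0.71 ± 0.11 (5.2e-05).

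CD86, a costimulatory ligand for T cells, and IL10RA, the ligand-binding chain of the interleukin 10 receptor, are both surface proteins. CD86 read 77.5, 71.0 and 59.2 in controls, 212 and 233 with hairpin 5 and 198 and 159.9 with hairpin 6 (1.28 ± 0.27, adjusted p = 0.00204), and its other probe sets changed by 0.47 and 0.59. IL10RA read 22.6, 36.5 and 27.8, then 105 and 111 and 70.9 and 68.5 (1.15 ± 0.15, 6.1e-06). CD1D, which presents lipids to natural killer T cells, rose by 0.99 ± 0.14 (1.6e-05) and the hexose transporter SLC2A6 by 0.99 ± 0.12 (2.7e-06), with differences between the hairpins of 0.25 ± 0.18 and 0.32 ± 0.16 that did not pass (0.596 and 0.329). TSC22D3, a glucocorticoid-induced leucine zipper protein, was at 115 in controls, 309 with hairpin 5 and 197 with hairpin 6 (0.97 ± 0.26, 0.0158). Its adjusted p lay between 0.0504 and 0.058 without any 1 of the controls.

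Promoter sequences of PTX3, TREM1 and CD14, which are among the largest rises, are shown because C/EBP and AP-1 factors are known regulators of myeloid genes. The bases are the 250 before the start site in RefSeq (GRCh38.p14), read 5′ to 3′ on the strand of the gene, with matches to the searched motifs in capitals. They belong to PTX3 (chr3:157436600-157436849, plus strand), TREM1 (chr6:41286683-41286932, minus strand) and CD14 (chr5:140633176-140633425, minus strand).
PTX3: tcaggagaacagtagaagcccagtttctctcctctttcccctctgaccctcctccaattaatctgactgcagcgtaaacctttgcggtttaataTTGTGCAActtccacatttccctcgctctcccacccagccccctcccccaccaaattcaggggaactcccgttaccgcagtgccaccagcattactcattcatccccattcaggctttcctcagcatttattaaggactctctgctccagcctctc
TREM1: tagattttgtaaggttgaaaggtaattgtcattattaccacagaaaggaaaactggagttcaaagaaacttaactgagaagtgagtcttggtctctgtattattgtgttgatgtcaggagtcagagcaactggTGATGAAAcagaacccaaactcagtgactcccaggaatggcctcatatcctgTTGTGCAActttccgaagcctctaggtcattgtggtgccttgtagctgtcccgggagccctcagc
CD14: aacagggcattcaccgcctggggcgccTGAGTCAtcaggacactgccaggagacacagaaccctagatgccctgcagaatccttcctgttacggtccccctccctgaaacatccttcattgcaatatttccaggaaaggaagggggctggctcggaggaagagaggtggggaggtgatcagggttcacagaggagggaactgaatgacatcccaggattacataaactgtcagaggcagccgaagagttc
The motifs were searched on both strands of 300 bases, 250 before and 50 after the start. They were TTGCNNAA for C/EBP, TGANTCA for AP-1, GAGGAAGT for PU.1, CACGTG as the E-box and TGATGNAA for ATF4. PTX3 holds a C/EBP match at −156, TREM1 a C/EBP match at −65 and an ATF4 match at −117, and CD14 an AP-1 match at −223, counted to the first base of the match. The promoter of CD86, which rose more than CD14 in the mean of the hairpins, held no match and is not shown. Of the 12 rising genes named here, 9 had a promoter in the table, and C/EBP matches were in 3 of them (PTX3, TREM1 and IL10RA), AP-1 matches in 2 and PU.1 matches in 0. Among all 27305 promoters of that table, 10.6% held the C/EBP letters, 7.76% the AP-1 letters, 2.54% the PU.1 letters, 7.43% the E-box and 3.67% the ATF4 letters. For the 9711 promoters of measured genes the shares were, in that order, 8.27%, 5.46%, 2.58%, 9.43% and 2.23%. Of the 12 falling genes 8 had a promoter there, and TERT held an E-box at −163, TNFAIP6 an AP-1 match at −129 and CTSG an ATF4 match at −115. A match is a description of the letters and no evidence of binding.

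The genes that fell most include a granule protease, a mitochondrial enzyme and secreted proteins. They were chosen as the largest falls with every hairpin array below every control, so that separation follows from the choice. CTSG, the primary granule protease cathepsin G, read 1696, 1550.3 and 1731 in controls, 788 and 718 with hairpin 5 and 614 and 554 with hairpin 6. The mean of the hairpin arrays was 40.3% of control. The log2 change was −1.29 ± 0.32 (adjusted p = 0.00881), with an error set largely by the other lines, and the adjusted p was 1.4e-06 with the HL-60 arrays alone. Hairpin 5 on its own did not pass (−1.11, adjusted p = 0.06), and hairpin 6 did (−1.47, 0.0242). MTHFD2, an enzyme of mitochondrial folate metabolism, went from 1509, 1478 and 1381 to 554 and 513 with hairpin 5 and 754 and 727 with hairpin 6. Its log2 change was −1.16 ± 0.14 (adjusted p = 2.8e-06), to 43.8% of control. TNFAIP6, a secreted hyaluronan-binding protein, fell further with hairpin 6 than with hairpin 5 (difference 1.00 ± 0.08, 9.4e-10): 238, 238 and 263 in controls, 158 and 161 and 76.2 and 62.6 (−1.08 ± 0.06, 1.7e-12). Its other probe set changed by −1.03.

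TERT, the catalytic subunit of telomerase, read 60.5, 57.3 and 66.1 in controls, 21.0 and 22.2 with hairpin 5 and 27.4 and 29.2 with hairpin 6, which took it close to the array median (−0.92 ± 0.12, adjusted p = 4.6e-06). PCOLCE2, an enhancer of procollagen processing, fell from a control mean of 112 to 54.4 and 50.1 (−0.88 ± 0.09, 1.6e-07). The neuropeptide galanin, GAL, fell from 1297 to 773 and 657 (−0.82 ± 0.19, 0.00513), and PRKACB, a catalytic subunit of protein kinase A, from 226 to 130.2 and 114 (−0.81 ± 0.16, 0.00122). The differences between the hairpins in these 3 genes were 0.07 ± 0.12, 0.22 ± 0.25 and 0.15 ± 0.21, and none passed (adjusted p = 0.886, 0.791 and 0.848). The metal ion importer SLC39A14 went from 453 to 304 and 192 (−0.85 ± 0.16, 5.1e-04). Some falls were larger with hairpin 5. CNN2, an actin-binding calponin, read 237, 219 and 239 in controls, 66.6 and 62.1 with hairpin 5 and 218 and 214 with hairpin 6, where the change was −0.11 ± 0.09 (adjusted p = 0.699; difference −1.49 ± 0.10, 2.7e-11). GTF2E2, a subunit of the general transcription factor TFIIE, changed by −1.36 with hairpin 5 and −0.36 with hairpin 6, the zinc finger gene ZNF667 by −1.28 and −0.33, and IGFBP7, which binds insulin-like growth factors, by −1.17 and −0.40. The difference between the hairpins passed for these 3 genes too (adjusted p = 1.5e-08, 4.7e-09 and 0.0392).

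**Figure D2:**
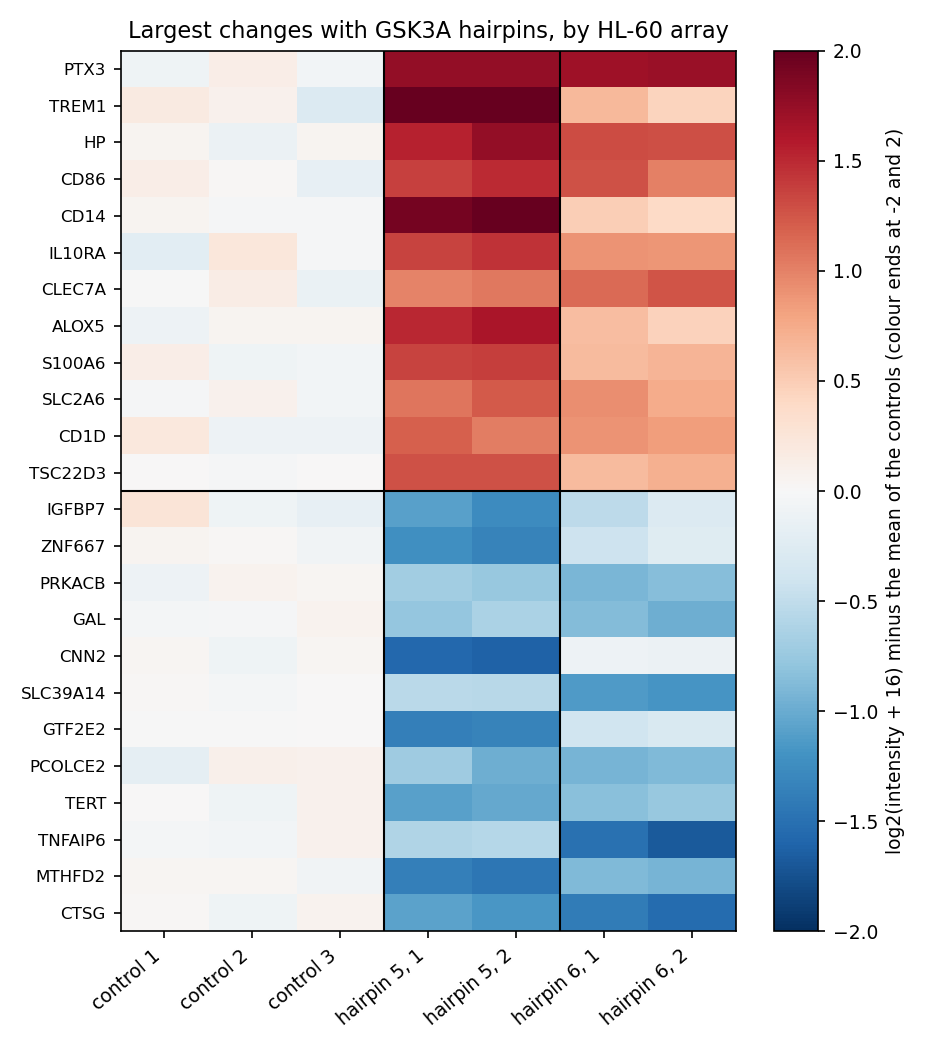
Difference of each HL-60 array from the control mean, in log2(intensity + 16), for the 12 rising (top) and 12 falling (bottom) genes; rows are genes and columns are arrays, red is higher and blue lower. All 4 hairpin arrays lie beyond all controls for each gene, as the choice of the genes requires, and the hairpin 6 columns are paler for CD14, TREM1, ALOX5 and CNN2 and darker for TNFAIP6.

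Genes of monocytes and macrophages, a list of 42 measured genes, were on balance higher. Of these, 15 rose, 1 fell and 26 did not pass, with a median log2 change of 0.34 beside −0.00 for all genes. The background shares were 4.05% rising and 4.97% falling. All 4 hairpin arrays lay above all controls for 21 of the 42 and below them for 2, where 10% and 10.3% of all genes did so. The summed intensity of the list was 8667 to 8956 on the control arrays and 11419 to 15378 on the hairpin arrays, without overlap. Beside TREM1, CD86, CD14 and CLEC7A, the fractalkine receptor CX3CR1 rose with hairpin 5 only, from 27.5, 20.3 and 22.3 in controls to 119.7 and 113, against 24.2 and 21.0 with hairpin 6, and the difference between the hairpins passed (1.71 ± 0.14, adjusted p = 2.3e-09). The ribonuclease RNASE6 was higher on all hairpin arrays, at 139 and 161 and 191 and 211 against 101, 105 and 108 (0.62 ± 0.13, adjusted p = 0.00192). The galectin LGALS3 rose by 0.60 ± 0.07 (2.5e-06). Its change was 0.97 with hairpin 5 and 0.23 with hairpin 6, which did not pass (adjusted p = 0.171), and the hairpins differed (6.1e-06). The member that fell was CCR2, the receptor for CCL2, at 106 and 99.4 and 109.9 and 119.8 against 162, 174 and 169.7 (−0.57 ± 0.14, 0.00769; named after its values were seen). By hairpin, 16 members rose and 2 fell with hairpin 5 (median 0.42; 5.87% and 6.11% of all genes did so), and 7 rose and 0 fell with hairpin 6 (median 0.21; 1.92% and 2.35% of all genes). With the HL-60 arrays alone 24 rose and 2 fell, where 10.4% and 10.9% of all genes did so. The counts were the same with plate columns as a block, against 9.45% and 10.4%.

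Genes of neutrophil maturation had calls in both directions. Among 37 genes on the array 6 rose and 3 fell, while 28 did not pass (median 0.05), beside 4.05% and 4.97% of all genes. In the fit of the HL-60 arrays alone 12 rose and 2 fell (10.4% and 10.9% of all genes), and with plate columns as a block 9 rose and 3 fell (9.45% and 10.4%). FPR1, the formyl peptide receptor, rose in the mean of the hairpins (0.61 ± 0.11, adjusted p = 2.5e-04). It was at a mean of 188 in controls, 368 with hairpin 5 and 243 with hairpin 6. Hairpin 6 on its own did not pass (0.33, adjusted p = 0.167), and the hairpins differed in FPR1 (0.56 ± 0.14, 0.0113). CSF3R, the receptor for granulocyte colony-stimulating factor, read 57.5, 55.2 and 54.6 in controls, 85.6 and 92.0 with hairpin 5 and 96.0 and 108 with hairpin 6 (0.57 ± 0.16, 0.0246). Its groups did not overlap, but neither hairpin passed on its own (adjusted p = 0.1205 with hairpin 5 and 0.0567 with hairpin 6). The mean call of CSF3R was lost (adjusted p up to 0.0885) without any 1 of the controls, the second hairpin 5 array or the second hairpin 6 array. CD38, a surface enzyme that retinoic acid induces in HL-60, fell instead: 76.1, 74.0 and 79.1 in controls, 29.5 and 30.2 and 55.2 and 47.3 (−0.71 ± 0.17, 0.00667). CEACAM6, an adhesion molecule of granulocytes, also fell (−0.58 ± 0.08, 6.4e-06). ITGAM, the CD11b integrin chain, read 93.8, 95.5 and 86.2 in controls, 144 and 137 with hairpin 5 and 86.3 and 76.0 with hairpin 6, so the groups overlap. It passed with hairpin 5 (0.49, 0.0225), not with hairpin 6 (−0.16, 0.73), and the difference between them passed (0.65 ± 0.16, 0.00886). The calprotectin genes S100A8 and S100A9 read 7615 and 1807 with hairpin 5 against 5516 and 1305 in controls, and 5755 and 1287 with hairpin 6. Their mean changes of 0.28 ± 0.60 and 0.25 ± 0.42 did not pass (adjusted p = 0.899 and 0.848), while with the HL-60 arrays alone they did (7.7e-04 and 0.00118).

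Primary granule genes, the enzymes of the promyelocyte stage, had 0 rising, 3 falling and 12 not past the test of 15 measured (median −0.19), where 4.05% and 4.97% of all genes rose and fell. Those that fell were CTSG, the eosinophil granule protein PRG2 (−0.36 ± 0.06, adjusted p = 2.4e-04) and the defensin DEFA4 (−0.41 ± 0.06, 4.5e-05). DEFA4 changed by −0.60 with hairpin 5 and −0.22 with hairpin 6, which did not pass (adjusted p = 0.109), and the hairpins differed (0.00272). MPO, myeloperoxidase, read 5827, 5542 and 5357 in controls, 4355 and 4178 with hairpin 5 and 4725 and 4868 with hairpin 6. All hairpin arrays lay below all controls, yet the change of −0.27 ± 0.11 did not pass (adjusted p = 0.135), and it did with the HL-60 arrays alone (0.00568). ELANE, neutrophil elastase, overlapped the controls: 3156, 2417 and 2671, then 1807 and 1706 with hairpin 5 and 2829.5 and 3095 with hairpin 6 (−0.22 ± 0.29, 0.791). With the HL-60 arrays alone 1 member rose and 8 fell (10.4% and 10.9% of all genes), and with plate columns as a block 1 rose and 4 fell (9.45% and 10.4%).

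Of 32 myeloid transcription factors, 3 rose, 2 fell and 27 did not pass (median 0.07), beside 4.05% and 4.97% of all genes. Fitted on the HL-60 arrays alone, 10 rose and 4 fell (10.4% and 10.9%), and with plate columns as a block 9 rose and 3 fell (9.45% and 10.4%). ID2, which blocks basic helix-loop-helix factors, went from 472, 559.8 and 554 to 1018 and 976 with hairpin 5 and 724 and 651 with hairpin 6 (0.65 ± 0.16, adjusted p = 0.00828). VDR, the vitamin D receptor, rose by 0.32 ± 0.10 (0.0449) and CEBPE, a factor of late granulocyte maturation, by 0.19 ± 0.06 (0.0475). VDR changed by 0.55 with hairpin 5 and 0.10 with hairpin 6. CEBPE was higher with hairpin 6, at 250.3 and 257 against 187, 177 and 190.1 in controls and 187 and 170.3 with hairpin 5 (difference −0.49 ± 0.08, adjusted p = 1.2e-04). The factors that fell were IRF8 (−0.44 ± 0.14, 0.0415) and GFI1 (−0.24 ± 0.06, 0.00807). IRF8 did not pass with hairpin 5 (adjusted p = 0.0712) or hairpin 6 (0.178) on its own, and GFI1 did not with hairpin 6 (0.639). SPI1, which encodes PU.1, changed by 0.09 ± 0.07 (0.53) and CEBPA by −0.18 ± 0.08 (0.208), and neither passed. The calls of ID2, VDR, CEBPE, IRF8 and GFI1 were each lost without at least 1 array, with adjusted p values of up to 0.0622, 0.133, 0.211, 0.19 and 0.0699.

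Among 24 stem and progenitor genes, 2 rose, 2 fell and 20 did not pass (median −0.02), beside 4.05% and 4.97% of all genes. MYB, a driver of progenitor growth, read 1515, 1619 and 1443 in controls and 778 and 781 with hairpin 5, and 1222 and 1206 with hairpin 6 (−0.61 ± 0.10, adjusted p = 1.1e-04). The groups did not overlap, and the hairpins differed (−0.63 ± 0.13, 0.00186). WT1, a zinc finger factor found in most AML, fell (−0.48 ± 0.10, 0.00123). The pseudokinase TRIB2 and the homeobox gene PBX3 rose, by 0.85 ± 0.13 (3.8e-05) and 0.52 ± 0.06 (2.9e-06). Over the mean of their probe sets, MYB and WT1 did not pass (adjusted p = 0.0735 and 0.0671).

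Of 31 chemokines and cytokine receptors, 11 rose, 1 fell (CCR2) and 19 did not pass (median 0.22), beside 4.05% and 4.97% of all genes. Beside IL10RA, CX3CR1 and CSF3R, the list holds the interleukin 1 receptor IL1R1, which rose only on the hairpin 6 arrays, at a mean of 59.1 against 32.7 with hairpin 5 and 30.8 in controls. The difference between the hairpins was −0.60 ± 0.08 (adjusted p = 9.2e-06). Of 32 NF-kB and inflammation genes, 8 rose, 0 fell and 24 did not pass (median 0.11). By hairpin, 12 rose with hairpin 5 (5.87% of all genes) and 1 with hairpin 6 (1.92%), and with the HL-60 arrays alone 15 rose and 2 fell (10.4% and 10.9%). In the test between the hairpins, 8 of the 32 members (3.72% of all genes) were higher with hairpin 5 than with hairpin 6. The chemokine CCL4 read 16.2, 15.5 and 25.4 in controls, 71.6 and 75.3 with hairpin 5 and 17.7 and 16.1 with hairpin 6 (difference 1.43 ± 0.09, adjusted p = 4.7e-12). The scavenger receptor OLR1 and the interleukin 1 receptor antagonist IL1RN had changes of 0.83 and 0.80 with hairpin 5 and 0.01 and 0.15 with hairpin 6. Interferon response genes had 7 of 41 rising, 0 falling and 34 not past the test (median 0.13), and 17 rose and 1 fell with the HL-60 arrays alone. PSMB9, an immunoproteasome subunit, read 108, 111 and 120.4 in controls, 289 and 299.9 with hairpin 5 and 196 and 188 with hairpin 6 (0.95 ± 0.12, 2.3e-06), and the antiviral GTPase MX2 and TRIM22 rose by 0.81 ± 0.10 (1.3e-06) and 0.57 ± 0.12 (0.00138).

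Of 24 genes of antigen presentation, 1 rose (CD86), 0 fell and 23 did not pass (median 0.14), close to the 4.05% of all genes that rose. With the HL-60 arrays alone 10 rose and 1 fell, beside 10.4% and 10.9%. Of 19 integrins and adhesion genes, 4 rose and 1 fell (median 0.03), with 7 and 3 for the HL-60 arrays alone. ITGB2, the beta chain of the leukocyte integrins, rose by 0.55 ± 0.14 (adjusted p = 0.0111), ADGRE5 by 0.39 ± 0.08 (0.00114) and ITGB7 by 0.77 ± 0.14 (3.7e-04), and ICAM2 fell by 0.68 (6.3e-04). For ITGB7 the change was 1.42 under hairpin 5 and 0.12 under hairpin 6, and for ITGB2 it was 0.78 and 0.32. Hairpin 6 on its own did not pass for ITGB7 or ITGB2 (adjusted p = 0.875 and 0.4).

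Lysosomal genes had 9 of 49 rising, 3 falling and 37 not past the test (median 0.17), beside 4.05% and 4.97% of all genes. For 22 of the 49 all hairpin arrays lay above all controls and for 1 below, beside 10% and 10.3% of all genes. TFEB, the factor that turns on lysosomal genes, read 29.5, 33.3 and 24.4 in controls, 69.2 and 71.4 with hairpin 5 and 34.2 and 38.8 with hairpin 6 (0.54 ± 0.09, adjusted p = 1.7e-04). IDS, a sulfatase, rose by 0.97 ± 0.17 (2.1e-04), with its hairpin 5 arrays (269.7 and 300.1) clear of the controls (68.7, 92.9 and 65.7) and its hairpin 6 arrays (107 and 85.5) not. WIPI1, an early autophagy protein, rose by 0.59 ± 0.12 (0.00123; 0.0708 within plate columns 7 to 11), and the cathepsin CTSF fell (−0.42 ± 0.07, 3.1e-04). By hairpin, 12 members rose and 3 fell with hairpin 5 (5.87% and 6.11% of all genes), and 0 passed with hairpin 6 (limma), where the median was 0.14. At an unadjusted p under 0.05, 9 were higher and 2 lower with hairpin 6, where 1779 of 12165 genes passed in either direction. With the HL-60 arrays alone 23 rose and 3 fell, beside 10.4% and 10.9% of all genes.

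Genes of MYC and ribosome biogenesis moved the other way. Among 27 genes on the array 0 rose and 14 fell, while 13 did not pass, with a median of −0.28, beside 4.05% and 4.97% of all genes. For 24 of the 27 all hairpin arrays lay below all controls, as for 10.3% of all genes. The summed intensity of the list was 45714 to 46473 on the control arrays and 36696 to 39780 on the hairpin arrays. RRN3, which recruits RNA polymerase I to ribosomal DNA, read 211, 244 and 222 in controls, 182 and 159 with hairpin 5 and 95.3 and 93.4 with hairpin 6 (−0.75 ± 0.08, adjusted p = 4.5e-07). The hairpins differed in it (0.74 ± 0.11, 2.7e-05), with the lower level under hairpin 6. The nucleolar protein PES1 and the nucleoside kinase NME1 fell, with changes of −0.39 ± 0.07 (5.7e-04) and −0.37 ± 0.07 (6.3e-04). MYC itself read 8043, 7444 and 7514 in controls, 4934 and 4454 with hairpin 5 and 5650.5 and 5164 with hairpin 6. No hairpin array reached the controls, and the change of −0.63 ± 0.21 just missed the threshold (adjusted p = 0.0548), while it passed with the HL-60 arrays alone (5.1e-05) and with plate columns as a block (1.5e-05). By hairpin, 15 members fell with hairpin 5 (median −0.33; 6.11% of all genes) and 7 with hairpin 6 (median −0.23; 2.35% of all genes), with 0 rising in either. With the HL-60 arrays alone 0 rose and 23 fell (10.9% of all genes).

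Cell cycle genes were described by 3 lists. Of 30 genes of replication licensing and DNA synthesis, 1 rose, 0 fell and 29 did not pass (median 0.02), and of 30 mitotic genes 0 rose, 0 fell and 30 did not pass, with a median of 0.19 (limma). At an unadjusted p under 0.05, 2 mitotic genes were higher and 0 lower, where 2434 of 12165 genes passed in either direction. For 16 of the mitotic genes all hairpin arrays lay above all controls and for 0 below (10% and 10.3% of all genes), and 15 rose with the HL-60 arrays alone (10.4% of all genes). The replication gene that rose was CCNE2, a cyclin of S phase entry, at 215 and 228 and 183 and 163 against 105, 101 and 131 (0.71 ± 0.22, adjusted p = 0.0398). Its adjusted p was 0.0711 to 0.15 without control replicate 1, control replicate 2 or any 1 of the hairpin arrays, and 0.307 over the mean of its probe sets. Of 16 D cyclins, their kinases and inhibitors, 5 rose and 1 fell (median 0.07), where 4.05% and 4.97% of all genes did so. CCND3, cyclin D3, read 358, 387 and 337 in controls, 849.8 and 859 with hairpin 5 and 516 and 511 with hairpin 6 (0.86 ± 0.12, 1.1e-05), while CCND2, cyclin D2, was at 1082, 660.4 and 982 (−0.41 ± 0.11, 0.0197). The inhibitors CDKN2D, CDKN1A and CDKN1C rose by 0.66, 0.45 and 0.29, and the retinoblastoma gene RB1 by 0.33 (0.00109). CDKN1C was dim, with means of 16.1 in controls, below the array medians, 23.7 with hairpin 5 and 21.2 with hairpin 6. Hairpin 6 on its own did not pass for CDKN1C (0.24, adjusted p = 0.153). CDKN1A, the p21 inhibitor, overlapped the controls with hairpin 6 (21.9 and 17.5 against 17.7, 15.1 and 21.9). Without single arrays the adjusted p reached 0.171 for CDKN1A, 0.0837 for CDKN1C and 0.1003 for CCND2.

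**Figure D3:**
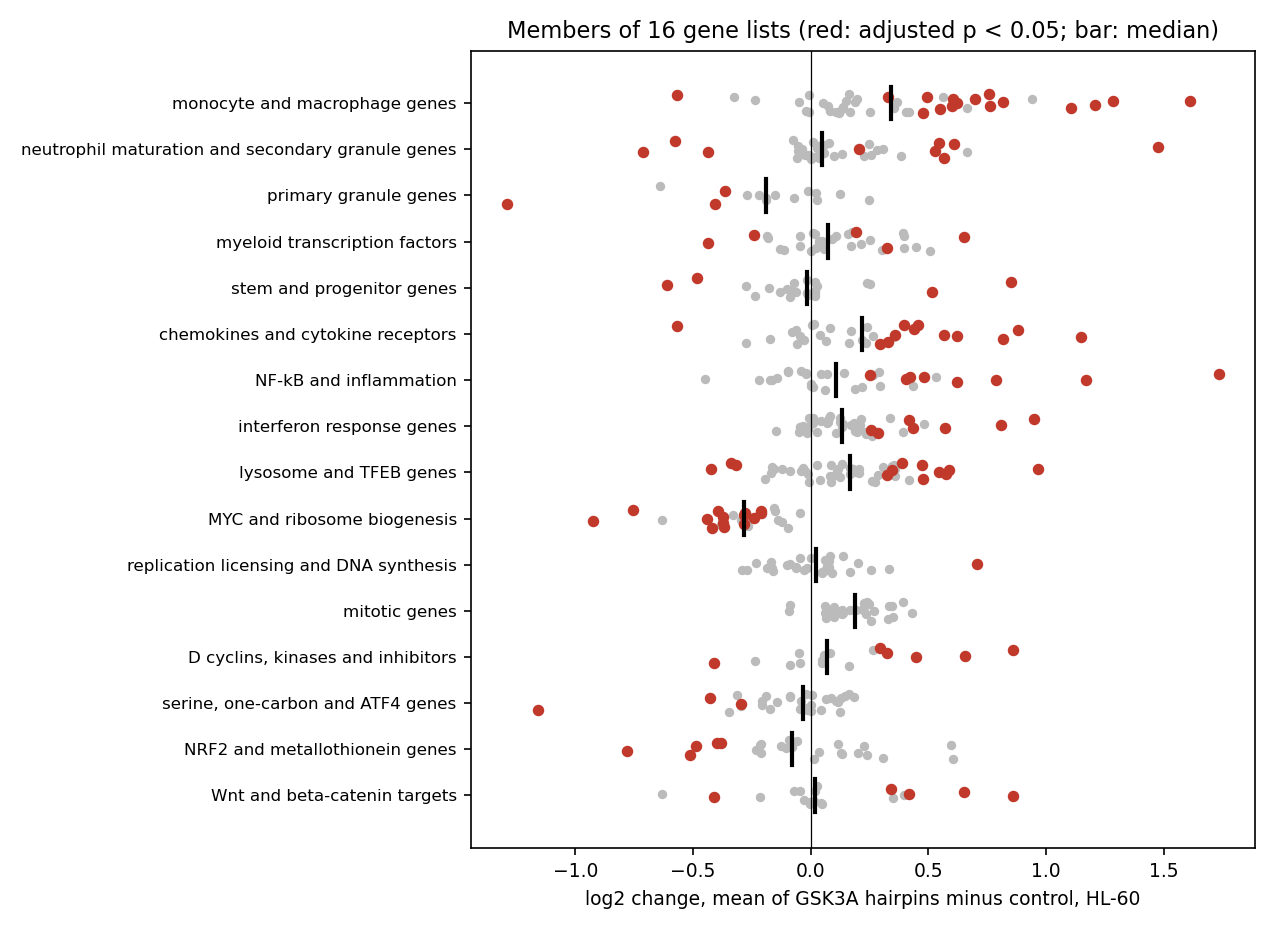
Log2 change of each measured member of 16 gene lists, mean of the GSK3A hairpins minus control in HL-60; points are genes, red where the adjusted p was under 0.05, and bars are list medians. The monocyte and macrophage median sits at 0.34 and the MYC and ribosome biogenesis median at −0.28, and the mitotic genes lie mostly above 0 with no red point.

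Of 19 Wnt and beta-catenin targets on the array, 4 rose, 1 fell and 14 did not pass (median 0.02), beside 4.05% and 4.97% of all genes. Those counts were 6 and 3 with the HL-60 arrays alone, beside 10.4% and 10.9%. The list has CCND3, ID2 and TCF7L2 among the rising and CCND2 the falling gene. TCF7L2, a partner of beta-catenin, had 0.34 ± 0.10 (adjusted p = 0.032), a call lost within either side of the plate (0.0953 and 0.0964). In the list of GSK3 and the beta-catenin destruction complex, 18 genes, FBXW11, an F-box protein that binds phosphorylated beta-catenin, rose by 0.26 ± 0.07 (0.0246), GSK3A fell and 16 did not pass. The FBXW11 call was lost over the mean of its probe sets (adjusted p = 0.349), within either side of the plate (0.194 and 0.21) and without any 1 of 5 arrays (up to 0.104). Glycogen metabolism, the namesake pathway of the kinase, had 0 of 18 genes past the test (limma) in the mean of the hairpins and a median of −0.03. At an unadjusted p under 0.05, 2 were higher and 2 lower, where 2434 of 12165 genes passed in either direction. When the HL-60 arrays were fitted alone, 1 rose and 1 fell, beside 10.4% and 10.9% of all genes.

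Metabolic lists are given beside the 4.05% of all genes that rose and the 4.97% that fell, or 10.4% and 10.9% with the HL-60 arrays alone. Of 32 genes of serine and one-carbon metabolism and ATF4, 0 rose and 3 fell: MTHFD2, its cytosolic counterpart MTHFD1 (−0.30 ± 0.07, adjusted p = 0.00814) and the amino acid transporter SLC7A5. SLC7A5 read 196 and 193 with hairpin 6 against 400.1, 457 and 412 in controls and 476 and 495 with hairpin 5, and the difference between the hairpins passed (1.24 ± 0.18, 2.6e-05). Of the list, 2 members rose and 8 fell with the HL-60 arrays alone. The mean call of SLC7A5 (0.0495) was lost without any 1 of the 7 arrays (up to 0.187). In the NRF2 and metallothionein list of 26 genes, 0 rose and 5 fell, namely the copper chaperone ATOX1 (−0.78 ± 0.13, 2.3e-04) and the metallothioneins MT1X, MT1G, MT1H and MT2A, of which MT2A was named after its values were seen. The changes of MT1X and MT1G were −0.79 and −0.75 under hairpin 5 and −0.18 and −0.27 under hairpin 6, and with the HL-60 arrays alone 6 members of the list rose and 7 fell. Of 29 genes of glycolysis and hypoxia, 2 rose (hexokinase HK1 and the glucose transporter SLC2A3) and 2 fell (ADM, adrenomedullin, and GPI), with 4 and 7 for the HL-60 arrays alone. HK1 changed by 1.29 with hairpin 5 and 0.30 with hairpin 6, SLC2A3 by 1.24 and 0.06, ADM by −0.57 and −0.87 and GPI by −0.10 and −0.58. Cholesterol genes had 1 rising and 2 falling of 21, respiratory chain genes 0 and 2 of 29, and unfolded protein response genes 1 and 1 of 21. These counts were, with the HL-60 arrays alone, 4 and 3, 1 and 5, and 2 and 6.

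Apoptosis regulators had calls in both directions, with 7 of 29 rising, 4 falling and 18 not past the test (median 0.08), beside 4.05% and 4.97% of all genes. CASP8, an initiator caspase, was higher with both hairpins, at 287 and 301 and 331 and 331 against 218, 181 and 178 (0.64 ± 0.11, adjusted p = 2.6e-04). The death-promoting BIK fell from 131, 135 and 125 to 58.0 and 59.0 with hairpin 5 and 94.8 and 65.8 with hairpin 6 (−0.78 ± 0.11, 1.6e-05), and the survival genes BCL2L2 and MCL1 rose by 0.61 ± 0.08 (4.8e-06) and 0.33 ± 0.07 (0.00112). BCL2L2 changed by 0.86 with hairpin 5 and 0.36 with hairpin 6, and the hairpins differed (0.50 ± 0.10, adjusted p = 0.00188). The survival gene BCL2 fell (−0.68 ± 0.21, 0.0395), as did CASP9 (−0.31 ± 0.08, 0.0102) and CFLAR (−0.32 ± 0.10, 0.0498), a caspase and a caspase inhibitor, all 3 named after their values were seen. The MCL1 call was lost over the mean of its probe sets (adjusted p = 0.427). 

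Markers of other cells did not pass in the mean of the hairpins: 0 of 12 erythroid, 0 of 14 megakaryocyte, 0 of 20 T and NK cell, 0 of 10 B cell genes and, for epithelium and stroma, 0 of 18 (limma), beside 9.02% of all genes. Most of them were dim: in that order 3, 2, 1, 0 and 2 lay above the median intensity of the controls, so the lists could show little change. At an unadjusted p under 0.05 (limma), 2 T and NK cell genes were lower and 0 of the others differed, where 2434 of 12165 genes passed in either direction. With the HL-60 arrays alone 1 erythroid and 1 T and NK cell gene fell, beside 10.9% of all genes. Their summed intensities on control and hairpin arrays overlapped for the T and NK cell genes (335 to 364 and 258 to 386), the B cell genes (93.5 to 107 and 92.01 to 100.2) and the epithelial and stromal genes (184 to 189 and 181 to 194). In RNA from bulk cells, more cells of a mature type and more RNA of its genes per cell cannot be told apart.

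The hairpins differed from each other in 831 genes (6.83%), of which 452 (3.72%) were higher with hairpin 5 and 379 (3.12%) higher with hairpin 6. This test uses no control array. MICAL2, an enzyme that takes actin filaments apart, moved in opposite directions: 183, 202 and 201 in controls, 379.9 and 391 with hairpin 5 and 105 and 96.5 with hairpin 6. Its mean change of 0.03 ± 0.08 hides a change of 0.91 ± 0.09 (adjusted p = 5.9e-08) with hairpin 5 and −0.86 ± 0.09 (6.6e-07) with hairpin 6. S100A10, a partner of annexin A2, read 165, 168 and 166 in controls, 433 and 461 with hairpin 5 and 117 and 114 with hairpin 6, and both changes passed (1.33, 1.7e-09, and −0.46, 0.0111). CCL2, a monocyte chemoattractant, read 477, 461 and 612, then 2378 and 2563 and 566 and 560.0 (difference 2.06 ± 0.49, 0.00785). That difference lost its call without any 1 of the 4 hairpin arrays (0.0515 to 0.0738). HIP1, an endocytic adaptor, was at a mean of 103 in controls, 294 with hairpin 5 and 70.0 with hairpin 6 (difference 1.80 ± 0.17, 2.1e-08).

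Genes lowest with hairpin 5 were led by NEFH, a neurofilament subunit, and CNN2. NEFH read 204, 211 and 186 in controls, 56.8 and 40.7 with hairpin 5 and 227 and 224 with hairpin 6 (difference −1.86 ± 0.11, adjusted p = 4.7e-12), and its other probe set changed by −1.17 and 0.01. EFR3A, a membrane scaffold protein, read 253 with hairpin 5, 725 with hairpin 6 and 620.4 in controls (−1.47 ± 0.17, 1.2e-06). PLCB4, a phospholipase, was lower than the controls with hairpin 5 (−0.99, 9.5e-13) and higher with hairpin 6 (0.37, 5.6e-05). The forkhead gene FOXN3 and the zinc finger gene ZNF140 differed by −1.28 ± 0.20 and −1.26 ± 0.12. The 6 genes lower with hairpin 5 were chosen as the largest such differences that passed, so the separation of their hairpin arrays follows from the choice. Hairpin 6 lay at or above the control mean in all of them but CNN2.

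**Figure D4:**
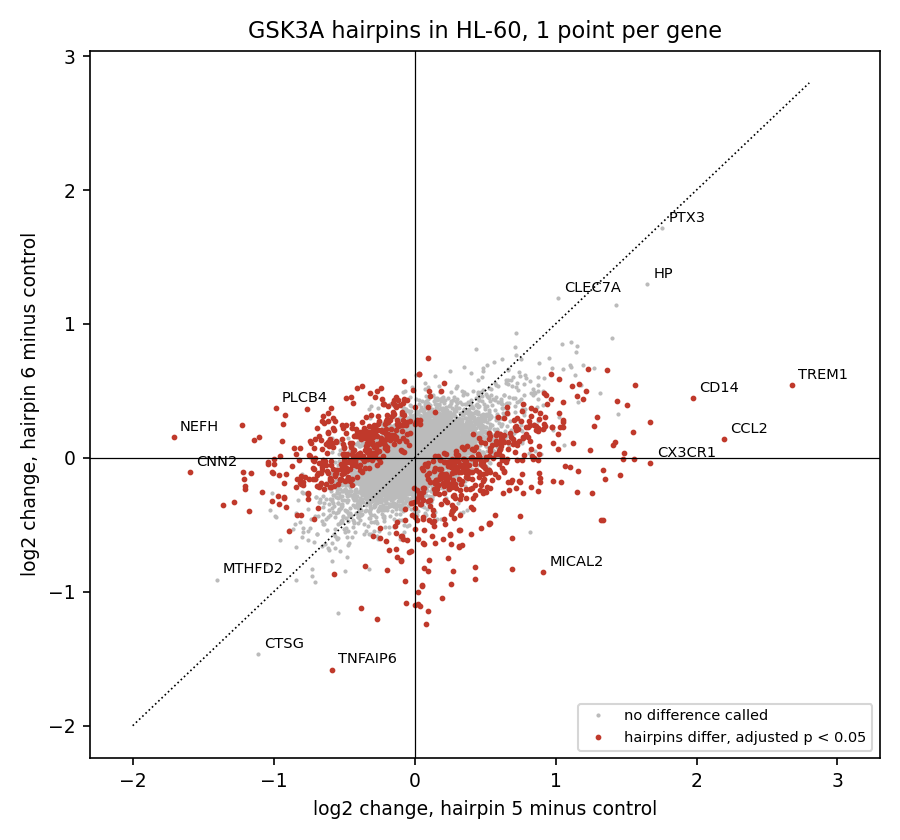
Log2 change of each of 12165 genes with hairpin 5 (horizontal) and hairpin 6 (vertical) against the same 3 control arrays; red points are the 831 genes that differ between the hairpins, and the dotted line marks equal change. PTX3, HP and CLEC7A lie near the line, CD14, TREM1 and CCL2 lie far to its right, and MICAL2 rises with hairpin 5 and falls with hairpin 6.

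Set against the GSK3B hairpins in the same line, which uses no control array, the GSK3A hairpins gave 633 genes higher (5.2%) and 653 lower (5.37%), together 10.6%. GSK3B itself differed by 1.65 ± 0.09 (adjusted p = 3.0e-13). CD86 differed by 1.78 ± 0.25 (1.3e-05) and read 70.1 and 70.4 and 28.1 and 22.4 with the GSK3B hairpins, at the level of the controls (77.5, 71.0 and 59.2) or below. CD14 differed by 1.41 ± 0.06 (2.6e-15) and read 347 and 355 and 154 and 137 with the GSK3B hairpins. Its GSK3B hairpin 1 arrays lay above the controls (274, 258 and 255) and near GSK3A hairpin 6 (379 and 354), and GSK3B hairpin 2 lay below the controls. GSK3A hairpin 5 was far higher (1039.6 and 1144). TREM1 (1.70), HP (1.41) and CLEC7A (1.35) were also higher with the GSK3A hairpins. HP read 362 and 399 with GSK3B hairpin 1, above its controls (233, 206 and 233), and 138 and 151 with GSK3B hairpin 2, below them. CLEC7A read 53.8 and 39.3 with GSK3B hairpin 1 and 17.9 and 24.3 with GSK3B hairpin 2, against 39.6, 47.8 and 35.5 in controls. The genes most reduced relative to the GSK3B hairpins were PRG2, MTHFD2, DEFA4, CNN2, NEFH and TNFAIP6. PRG2 read 1574, 1443 and 1483 in controls, 1088 and 998 and 1343 and 1157 with the GSK3A hairpins and 2523 and 2721 and 2828 and 2901 with the GSK3B hairpins, so that the paralogs' hairpins lay on either side of the controls (−1.21 ± 0.06, 4.8e-14). DEFA4 read 55.8 and 50.9 and 105 and 115 with the GSK3B hairpins, against 53.1, 38.9 and 40.9 in controls and 23.8 and 24.4 and 31.8 and 41.0 with the GSK3A hairpins (adjusted p = 1.2e-12). MTHFD2 differed by −1.07 ± 0.13 (2.3e-06).

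The change in HL-60 was then compared with the mean change of THP-1, MOLM-14 and U937 under the same hairpins. The difference passed for 212 genes (1.74%), of which 97 were more positive in HL-60 and 115 more negative. GSK3A itself changed by −0.03, −0.03 and −0.09 in THP-1, MOLM-14 and U937 and did not pass there (adjusted p = 0.996, 0.811 and 0.46). Its difference between HL-60 and the other lines did not pass either (−0.15 ± 0.06, 0.294). Whether the lines lost GSK3A to the same extent was not tested further. Among the rising genes named above, which were chosen for their size in HL-60, PTX3 and HP (1.17 ± 0.15, adjusted p = 4.1e-05) had the largest differences, followed by CD14 and CLEC7A. The CD14 change was 1.21 in HL-60 and 0.09, −0.00 and 0.03 in THP-1, MOLM-14 and U937 (difference 1.17 ± 0.07, adjusted p = 5.7e-11). CD14 read 13.2, 9.77 and 7.82 in controls of those lines, below the array medians, where this scale makes changes smaller. The CLEC7A change was 1.11 and 0.01, −0.01 and 0.03 (1.10 ± 0.09, 6.8e-09), and its level in the other lines was not analysed here. PTX3 had a difference of 1.27 ± 0.20 (6.0e-04) and changed by 0.67, 0.31 and 0.43 in the other lines. The differences of TREM1, CD86, IL10RA and TSC22D3 did not pass, and CD86 changed by 1.30 in MOLM-14 and 0.98 in U937.

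Of the falling genes, TNFAIP6 had the largest difference that passed, with −1.08 in HL-60 and −0.01, −0.02 and −0.00 in the others (difference −1.07 ± 0.07, adjusted p = 6.8e-11). Its level in the other lines was not analysed here, and a gene near background there could not fall by as much. PRKACB (−0.82 ± 0.19, 0.0176), ZNF667 (−0.82 ± 0.07, 4.0e-08), PCOLCE2 (−0.72 ± 0.10, 1.7e-04) and SLC39A14 (−0.70 ± 0.18, 0.043) fell more in HL-60. The difference of MTHFD2 did not pass (−0.31 ± 0.17, 0.494), and its change was −0.55, −1.26 and −0.73 in the other lines. The differences of GAL and CNN2 were −0.00 ± 0.22 and −0.06 ± 0.09 and did not pass either. CCNE2 changed by 0.71 in HL-60 and by 0.11, −1.10 and 0.20 in the others (difference 0.97 ± 0.25, 0.0442). GPNMB, a lysosomal glycoprotein of macrophages, changed by −0.23 in HL-60, where it lay near the array median, and by 0.33, 0.75 and 0.94 in the others (−0.91 ± 0.22, 0.0267). The differences of CCNE2, GPNMB, PRKACB and SLC39A14 were each lost without some single array (adjusted p up to 0.148, 0.113, 0.0631 and 0.115). The CTSG difference of −1.13 ± 0.37 did not pass (0.145).

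**Figure D5:**
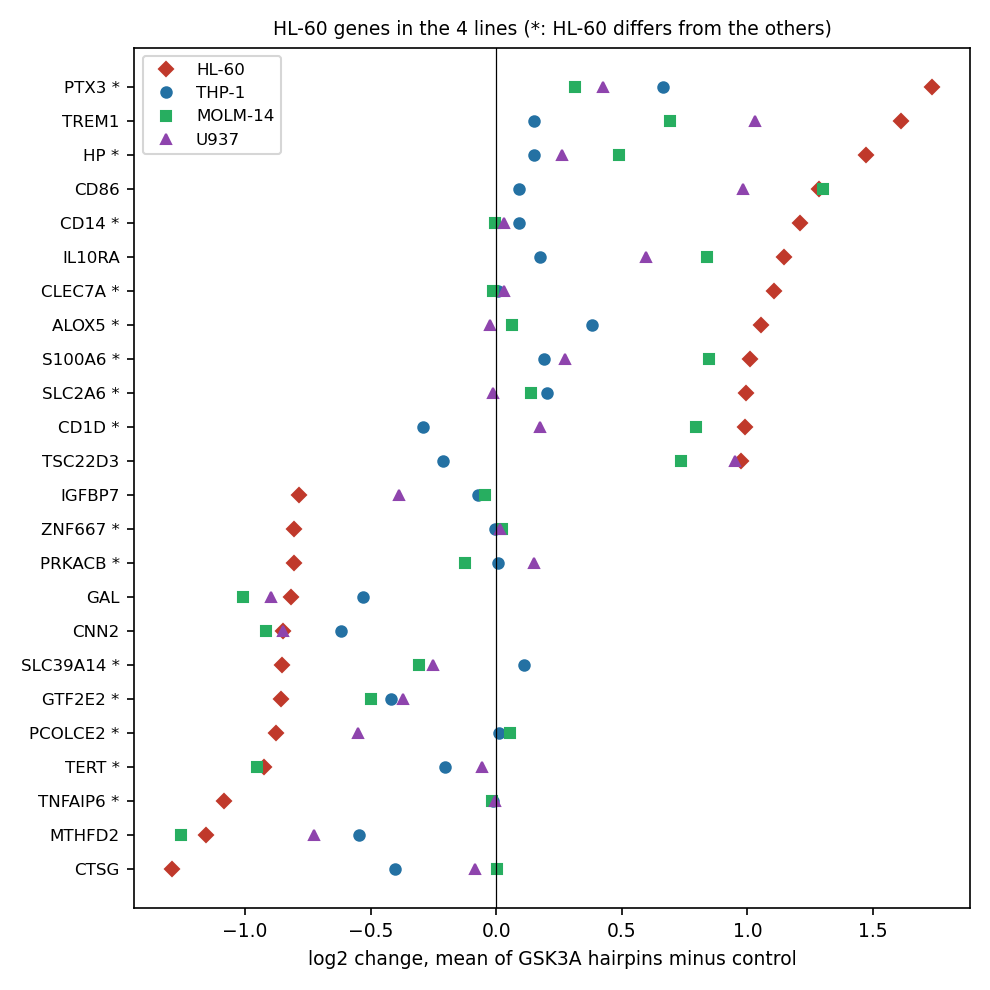
Log2 change, mean of the GSK3A hairpins minus control, of the 24 genes with the largest HL-60 changes in each of 4 AML lines; diamonds are HL-60, circles THP-1, squares MOLM-14 and triangles U937, and a star marks genes whose HL-60 change differs from the mean of the others at an adjusted p under 0.05. CD14, CLEC7A and TNFAIP6 stand apart in HL-60, while CD86, MTHFD2, GAL and CNN2 moved by similar amounts in MOLM-14 or U937.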

How the data were processed

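The authors deposited 1 intensity per probe set and array, on a linear scale, for 22277 probe sets on 44 arrays. The submitters' processing notes name RMA and MAS5, and which of them gave the table is not given in the sources used here. From these intensities log2(value + 16) was computed, arrays were quantile-normalized, and the brightest probe set stood for a gene, which left 12165 genes out of 19724 probe sets that name 1 gene (568 name several and 1923 none). Symbols were updated through RefSeq (GRCh38.p14). limma 3.58.1 in R 4.3.3 was fitted over 20 groups of cell line and hairpin with 24 residual degrees of freedom, with Benjamini-Hochberg adjustment over all genes at 0.05, and was tested on simulated data. Printed levels are deposited intensities. The 31 lists hold 832 genes, of which 738 were measured. The comparison, the lists and the named genes were chosen with earlier results of these data known. Named were GSK3A and GSK3B, the 12 largest changes each way without overlap of arrays, the 6 largest each way in the other contrasts, up to 4 members a list with the smallest adjusted p and a fixed set of myeloid genes. Alternatives were other normalizations, pseudocounts, a filter on dim probe sets, the mean of probe sets, HL-60 arrays only, blocks and leaving out each array. CD33 and LYZ were not analysed here, as no probe set named them alone.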

Additional observations from a re-analysis of the deposited data

Results flagged for a closer look

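The change of 212 genes in HL-60 differed from the mean change of the other lines by a test of the difference itself (limma, adjusted p under 0.05). More positive in HL-60 were PTX3 by 1.27, CD14 by 1.17, HP by 1.17, CLEC7A by 1.10, CCNE2 by 0.97 and ALOX5 by 0.91 on the log2(intensity + 16) scale. More negative were TNFAIP6 by −1.07, GPNMB by −0.91, PRKACB by −0.82, ZNF667 by −0.82, PCOLCE2 by −0.72 and SLC39A14 by −0.70. The change of GPNMB in HL-60 itself did not pass (−0.23 ± 0.19, adjusted p = 0.588), and PTX3 changed by 0.67, 0.31 and 0.43 in THP-1, MOLM-14 and U937. CD14 lay below the array medians in controls of those lines (7.82 to 13.2). The change of GSK3A itself did not pass in those lines (−0.03, −0.03 and −0.09).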

How the results depend on the processing

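The GSK3A change lay between −0.24 and −0.16 when single arrays were left out, and it did not pass within plate columns 1 to 6 (−0.23) or 7 to 11 (−0.17). Counts of changed genes moved with the spread used. With HL-60 arrays only, 2594 genes passed for the mean, 2906 for hairpin 5, 1665 for hairpin 6, 2226 between the hairpins and 2679 against the GSK3B hairpins. With plate columns as a block the counts were 2418, 2756, 1520, 2046 and 2500, and 1056 for HL-60 against the other lines. Within columns 1 to 6 they were 1704 for the mean, 897 for hairpin 6 and 654 for HL-60 against the other lines. Leaving out single arrays gave 807 to 877 for the mean, 787 to 1394 for hairpin 5, 228 to 498 for hairpin 6, 431 to 803 between the hairpins, 127 to 151 against the other lines and 921 to 1259 against the GSK3B hairpins. Fewer arrays enter these last fits. The cause of the other shifts was not tested. Of the 1097 genes, 1055 also passed with HL-60 arrays only, 1097 with plate columns as a block, 760 to 848 without single arrays, 885 within columns 1 to 6 and 667 within columns 7 to 11. All 1097 kept their sign in these fits except within columns 7 to 11, where 1094 did. Of the named calls, 139 could be tried in most settings, 127 with HL-60 arrays only and 118 with the filter on dim probe sets. Among those tried 0 reversed, and 0 to 26 were lost per setting, the most without control replicate 2.

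Replicate numbers were compared as a possible pairing. The deviations of same-numbered HL-60 arrays correlated between −0.05 and 0.12, so the numbers were not taken as a pairing, although the same-numbered hairpin arrays also share a side of the plate. With a replicate block, 1516 genes passed for the mean, 810 for hairpin 6, 1481 between the hairpins, 514 for HL-60 against the other lines and 1992 against the GSK3B hairpins. The number of arrays limits the precision.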
